A study of Mus musculus with 6 samples.

Results

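Kruppel-like factors (KLFs) are zinc finger transcription factors that bind GC-rich and CACCC elements, and 9 of them were followed here in mouse Th9 cells with and without sorafenib. The genes Klf2, Klf3, Klf4, Klf6, Klf7, Klf10, Klf11, Klf12 and Klf13 were taken by their symbols from a table of 21233 genes, all 9 were present, and all 9 passed the low count filter that left 13255 genes for testing. The study comprised 6 RNA-seq libraries from Th9 cells, a CD4 T helper subset that secretes interleukin 9. Of these, 3 came from control cells and 3 from cells given sorafenib, a drug that blocks RAF kinases and several receptor tyrosine kinases. Not given in the sources used here were the dose and duration of treatment, the mouse strain and age, and what the control cells received instead. Nothing states that the numbered replicates were grown apart or came from different mice, so a p-value reflects the spread among these libraries alone, which could be technical.

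In T cells KLF2 is known for holding naive cells at rest and for driving genes of recirculation such as S1pr1. KLF4 is likewise known as a brake on T cell proliferation, while KLF10 and KLF11 were first described as early genes induced by transforming growth factor β (TGF-β). KLF3 and KLF12 are repressors that recruit the corepressor CtBP, KLF6 and KLF7 are broadly expressed activators, and KLF13 is known as a late activator of the chemokine gene Ccl5 in T cells. Antigen stimulation lowers Klf2 in T cells, and FOXO1 and the kinase ERK5 with its MEF2 partners are known to raise it.

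Sequence upstream of the start site was at hand for 8 of the 9 genes in a RefSeq table of build GRCm38.p6, with no entry for Klf10. The counts were made on GRCm39, so the coordinates given here belong to the RefSeq table alone. Shown are the upstream stretches of Klf2, Klf3 and Klf13, which rose with sorafenib, and of Klf4, a close relative of Klf2 that did not pass the test. Each runs 5′ to 3′ on the gene's strand and stops before any stretch found in that gene's own GENCODE M21 transcripts. For Klf4 the bases just after the RefSeq start site were in 0 of its 3 GENCODE transcripts, so its start site is less certain. Capitals mark the MEF2 consensus in Klf2 and the GC box GGGCGG, on either strand, in the others. The stretches are chr8:72318812-72319032 (plus strand) for Klf2, chr5:64803271-64803387 (plus strand) for Klf3, chr7:63938916-63939165 (minus strand) for Klf13 and chr4:55532476-55532725 (minus strand) for Klf4.
Klf2: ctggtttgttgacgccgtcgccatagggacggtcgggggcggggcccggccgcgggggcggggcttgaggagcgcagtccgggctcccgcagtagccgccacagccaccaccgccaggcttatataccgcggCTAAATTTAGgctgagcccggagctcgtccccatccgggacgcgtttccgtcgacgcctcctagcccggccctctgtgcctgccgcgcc
Klf3: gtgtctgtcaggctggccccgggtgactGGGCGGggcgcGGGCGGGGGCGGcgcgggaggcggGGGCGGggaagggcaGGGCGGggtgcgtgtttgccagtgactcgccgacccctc
Klf13: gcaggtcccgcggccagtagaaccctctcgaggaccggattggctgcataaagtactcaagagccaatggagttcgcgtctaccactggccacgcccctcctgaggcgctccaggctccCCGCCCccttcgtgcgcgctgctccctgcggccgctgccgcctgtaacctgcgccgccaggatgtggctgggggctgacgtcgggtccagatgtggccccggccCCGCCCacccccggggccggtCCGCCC
Klf4: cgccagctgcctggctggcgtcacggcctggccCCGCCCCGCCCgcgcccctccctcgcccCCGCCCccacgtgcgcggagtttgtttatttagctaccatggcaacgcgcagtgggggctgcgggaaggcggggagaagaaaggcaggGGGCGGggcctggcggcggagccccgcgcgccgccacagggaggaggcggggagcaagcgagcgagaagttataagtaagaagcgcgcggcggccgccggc

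Motifs were searched on both strands in the 250 bases before each start site, and matches of different motifs could overlap. The MEF2 consensus was matched in Klf2 alone of the 8 genes, at bases -118 to -109 from the start site, and in 2.92% of the 32851 upstream windows of the table. The GC box GGGCGG, which SP and KLF proteins bind, was matched in 7 of the 8 genes and in 32.7% of all windows. Klf3 held 6 GC boxes, of which 5 lie in the stretch shown, Klf4 and Klf11 4 each, Klf13 3, Klf2 2, Klf6 and Klf7 1 each, and Klf12 0. The letters CACCC were matched in 5 of the 8 genes and in 52.0% of all windows. A SMAD element CAGACA was matched in 1 of the 8 genes, Klf3, and in 17.1% of all windows. The FOXO letters GTAAACA (3.17% of all windows) and the AP-1 letters TGANTCA (6.75%) were matched in 0 of the 8, as were the ETS letters CCGGAA (12%), the CRE letters TGACGTCA (1.55%) and the SRF CArG consensus (1.47%). These are letter matches in a short window and no measure of binding.

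The libraries held 36981476 to 38126521 counts over all genes, and a count of 0 allowed a level of up to 3 counts, or 0.0766 to 0.0871 CPM, considering counting error alone. CPM here are counts scaled to a library total corrected with TMM factors of 0.9218 to 1.033, the lowest being that of control replicate 2. That library stood apart from the other control libraries, with a root mean square deviation from its group mean of 0.185 on the log2 scale against 0.103 and 0.135 in the other controls and at most 0.0855 in the sorafenib libraries. Markers of CD4 T cells were abundant in all 6 libraries, the 8 listed genes summing to 2274 to 2299 CPM in control and 1979 to 2069 CPM in sorafenib cells. Of these 8, 4 were lower with sorafenib (Cd3e, Cd3g, Cd28 and Lck) and 0 higher at an edgeR adjusted p under 0.05. Among all genes tested 9.43% were lower. In bulk RNA, fewer cells of a type and less RNA per cell cannot be told apart.

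With sorafenib 4 of the 9 KLF genes rose, namely Klf2, Klf10, Klf3 and Klf13, by 1.18-fold to 1.85-fold. Among all genes tested, 8.51% were higher, 9.43% lower and 17.9% changed in either direction by edgeR's quasi-likelihood test at an adjusted p under 0.05. By edgeR 0 of the 9 were lower, as they were at an unadjusted p under 0.05, by DESeq2 and by limma-voom, and 5 were higher at an unadjusted p under 0.05. The libraries of the groups did not overlap for 5 genes, the 4 called and Klf12, always with sorafenib above, where 18.3% of all genes tested lay wholly above and 18.0% wholly below. The median log2 fold change (sorafenib minus control) of the 9 was 0.24, and that of all genes tested was -0.01.

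**Figure D1:**
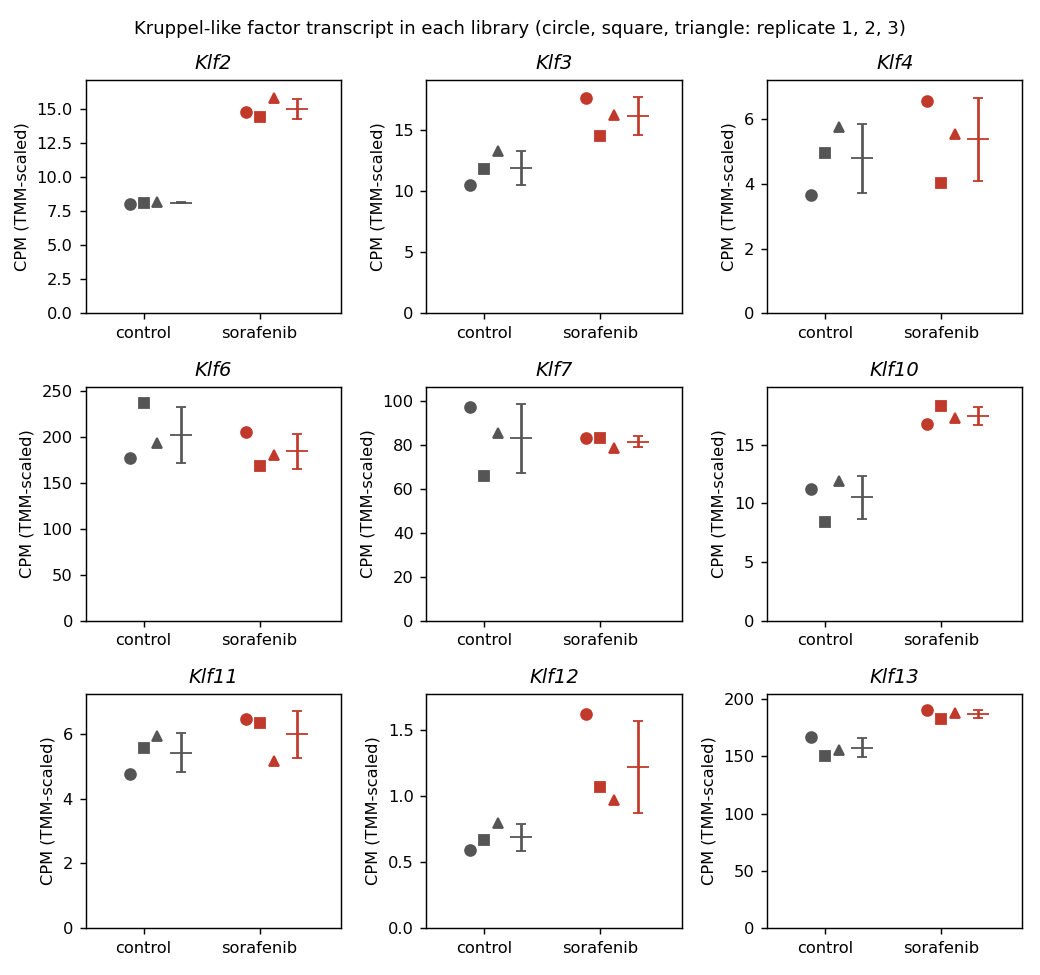
TMM-scaled CPM of the 9 KLF genes in each of 6 libraries (linear axes from 0, a separate axis for each gene), with circle, square and triangle for replicates 1, 2 and 3 and a bar for mean ± SD (n = 3). Every sorafenib library lies above every control library for Klf2, Klf3, Klf10, Klf12 and Klf13, while the groups overlap for Klf4, Klf6, Klf7 and Klf11.

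Klf2, the factor of quiescence and recirculation, showed the largest rise among the called members. Its level was 8.07, 8.13 and 8.15 CPM in the control libraries and 14.8, 14.4 and 15.8 CPM in the sorafenib libraries. The groups were far apart, and counts were 280 to 306 in control and 552 to 617 in sorafenib libraries. The control values had a coefficient of variation of 0.539%. That is smaller than counting error alone would give at such counts, so it is no measure of precision. The rise was 1.85-fold (log2 fold change 0.88 ± 0.10 SE, edgeR adjusted p = 0.000218). It was called in all 17 alternative analyses, with log2 fold changes from 0.82 to 0.96 and adjusted p up to 0.00342.

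Klf4, the close relative of Klf2, did not follow it at a detectable level. Its values were 3.65, 4.97 and 5.76 CPM in control and 6.57, 4.02 and 5.54 CPM in sorafenib libraries. The groups overlapped throughout, and each group's coefficient of variation was above 22% (22.3% and 23.9%). The log2 fold change was 0.17 ± 0.22 SE (edgeR adjusted p = 0.661), so a moderate change could not be told from none. Without control replicate 1 or without sorafenib replicate 1 the estimate was 0.00.

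Of the TGF-β-induced pair, Klf10 rose and Klf11 did not pass the test. Klf10 was 11.2, 8.42 and 11.9 CPM in control and 16.8, 18.3 and 17.3 CPM in sorafenib libraries. Control replicate 2 was the lowest, and the groups did not overlap. The rise was 1.66-fold (log2 fold change 0.73 ± 0.13 SE, edgeR adjusted p = 0.0035) and was called in all 17 alternatives (adjusted p up to 0.0377), being 0.59 on the log2 scale without control replicate 2. Klf11 had 4.77, 5.58 and 5.94 CPM in control and 6.49, 6.36 and 5.16 CPM in sorafenib libraries, with overlapping groups (log2 fold change 0.14 ± 0.15 SE, edgeR adjusted p = 0.574). Within each library the ratio of Klf10 to Klf11 in FPKM, which divides by gene length, was 2.33, 1.5 and 1.98 in control and 2.56, 2.85 and 3.32 in sorafenib cells. These ratios did not overlap, and their change of 1.52-fold had p = 0.1 in a two-sided exact permutation test, the smallest that 3 against 3 allows (0.1 also after Benjamini-Hochberg adjustment over 3 such ratios).

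Among the CtBP-recruiting repressors, Klf3 rose and Klf12 did not pass the test. Klf3 was 10.5, 11.8 and 13.3 CPM in control and 17.6, 14.5 and 16.2 CPM in sorafenib libraries. Control replicate 3 and sorafenib replicate 2 came closest to each other without overlap. The rise was 1.36-fold (log2 fold change 0.44 ± 0.12 SE, edgeR adjusted p = 0.0262). It no longer passed without control replicate 1 (adjusted p = 0.0779), without sorafenib replicate 1 (0.127) or 3 (0.104) and with unfiltered FPKM (0.0676). Klf12 was scarce, with 22, 23 and 30 counts in control and 63, 41 and 38 counts in sorafenib libraries. All 3 sorafenib libraries were above the controls, with sorafenib replicate 1 well above the rest. Its log2 fold change of 0.83 ± 0.34 SE was close to that of Klf2 but had a much larger error, and it did not pass (edgeR adjusted p = 0.126; from 0.0969 to 0.414 over 14 alternatives). The ratio of Klf2 to Klf3 in FPKM was 2.23, 2.0 and 1.78 in control and 2.45, 2.88 and 2.81 in sorafenib libraries, which did not overlap (exact permutation p = 0.1, the smallest possible).

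The abundant KLF genes behaved in different ways. Klf13, the activator of Ccl5, was 167, 150.2 and 156 CPM in control and 190.3, 183 and 188 CPM in sorafenib libraries. The groups did not overlap, and the rise was small at 1.18-fold (log2 fold change 0.24 ± 0.07 SE, edgeR adjusted p = 0.0292). Its call was lost in 6 of the 17 alternatives, among them those without control replicate 3 (adjusted p = 0.0996), without sorafenib replicate 1 (0.124), 2 (0.0739) or 3 (0.138) and with unfiltered FPKM (0.0711). Klf6, a factor quickly induced by serum and injury in many cell types, was 177, 236 and 193 CPM in control and 205, 168 and 179.7 CPM in sorafenib libraries. Control replicate 2 was the highest of the 6 and the groups overlapped (log2 fold change -0.13 ± 0.11 SE, edgeR adjusted p = 0.479), and without that library the estimate was 0.00. Klf7 was 97.4, 66.1 and 85.5 CPM in control and 83.0, 83.1 and 78.6 CPM in sorafenib libraries. Here control replicate 2 was the lowest, and the coefficient of variation was 19.0% in control and 3.18% in sorafenib cells. Its log2 fold change was -0.03 ± 0.12 SE (edgeR adjusted p = 0.918), and -0.16 (adjusted p = 0.0592) without control replicate 2.

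**Figure D2:**
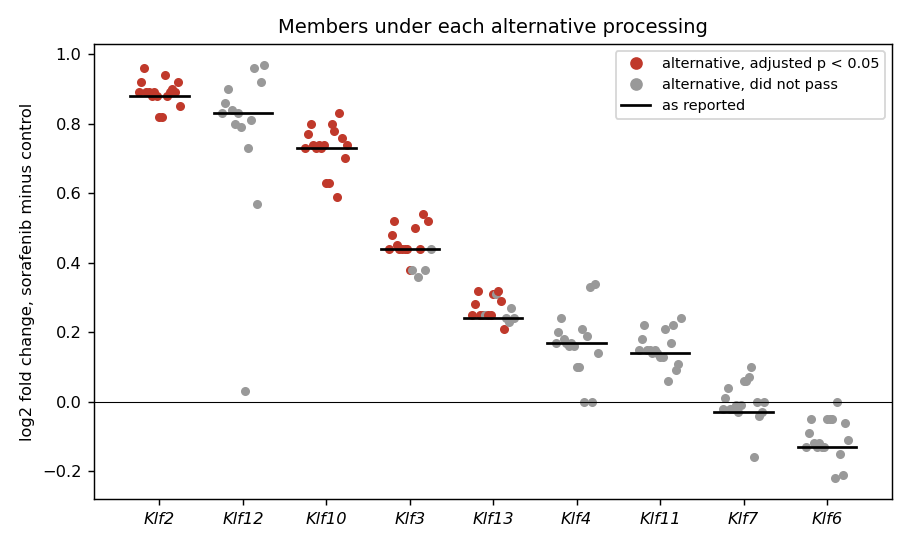
Log2 fold change (sorafenib minus control) of each KLF gene as reported (black line) and under each alternative analysis (points, spread sideways only for legibility; red where adjusted p was under 0.05). Klf2 and Klf10 were called throughout, Klf3 and Klf13 lost their call in some alternatives, and the value of Klf12 was 0.03 where 1 was added to its very low FPKM.

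Compared per length, Klf6 was the most abundant KLF transcript in both groups, at 46.4 ± 4.75 FPKM in control and 44.9 ± 4.37 FPKM in sorafenib cells (SD, n = 3). Klf13 followed at 24.1 ± 2.36 and 30.0 ± 0.472 FPKM, then Klf7 at 9.93 ± 2.31 and 10.2 ± 0.327 FPKM and Klf2 at 4.35 ± 0.199 and 8.47 ± 0.387 FPKM. Neighbours in this order did not overlap within either group down to Klf2, so the order of these 4 was the same with and without sorafenib. Klf10 stood at 2.56 ± 0.55 FPKM and Klf3 at 2.19 ± 0.27 FPKM in control, where their libraries overlapped, and at 4.46 ± 0.224 and 3.14 ± 0.281 FPKM in sorafenib cells, where they did not. Klf11 (1.33 ± 0.14 and 1.55 ± 0.188 FPKM), Klf4 (0.616 ± 0.135 and 0.73 ± 0.17 FPKM) and Klf12 (0.0258 ± 0.00422 and 0.0484 ± 0.0137 FPKM) came last. The places of Klf3, Klf4 and Klf11 depend on the gene length used. The deposited FPKM implied 7553 bases for Klf4 and 25859 bases for Klf12, where the merged exons of these genes in GENCODE M21 add up to 3049 and 6985 bases, and for Klf3 5267 against 11243 bases. With the GENCODE lengths Klf4 stood above Klf11 and Klf3 in control cells, at 1.57, 1.25 and 1.05 CPM per kilobase, while Klf12 stayed last at 0.0982.

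As a share of the FPKM of all 9 genes, Klf2 made up 4.55 to 4.89% in the control libraries and 7.63 to 8.7% in the sorafenib libraries. Klf10 made up 2.13 to 3.19% in control and 3.91 to 4.74% in sorafenib libraries, also without overlap. Klf6 had the larger share in control, at 46.1 to 56.9% against 41.6 to 45.6%, again without overlap. The share of Klf13 overlapped between the groups, at 23.9 to 28.8% in control and 27.8 to 29.7% in sorafenib libraries. Set against the most abundant member, the ratio of Klf2 to Klf6 was 0.106, 0.08 and 0.098 in control and 0.167, 0.199 and 0.204 in sorafenib libraries, 2.01-fold higher (exact permutation p = 0.1, the smallest possible).

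The related KLF and SP genes outside the 9 were measured for comparison. Of 17 listed, 15 were in the table and 10 were tested, of which 1 rose and 1 fell. That is 20% called, near the 17.9% of all genes tested, with a median log2 fold change of 0.04. Klf9, a factor induced by glucocorticoids in many tissues, was 18.9, 17.4 and 17.2 CPM in control and 11.6, 12.9 and 15.1 CPM in sorafenib libraries, so it moved opposite to Klf2 and Klf10. The groups did not overlap, and it fell 1.35-fold (log2 fold change -0.44 ± 0.11 SE, edgeR adjusted p = 0.0218). It no longer passed with control replicate 1 (adjusted p = 0.063) or 3 (0.0608) left out, with sorafenib replicate 1 (0.105) or 2 (0.0904) left out, under scaling by total counts (0.0711) or on any of the 3 FPKM scales (up to 0.167). Sp6 rose 2.86-fold at a low level, from 28, 36 and 44 counts in control to 116, 83 and 131 counts in sorafenib libraries (edgeR adjusted p = 0.00361). An antisense gene in the same table overlaps Sp6 in GENCODE M21, and whether counting used strand is not known here, so that value is uncertain. The same holds for Klf7.

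The abundant SP genes Sp1 and Sp3, which bind the same GC boxes as the KLF proteins, did not pass. Sp1 was 182, 160.3 and 174 CPM in control and 186, 192 and 192 CPM in sorafenib libraries (log2 fold change 0.14 ± 0.07 SE, edgeR adjusted p = 0.197). Sp3 had a log2 fold change of 0.16 ± 0.07 SE (edgeR adjusted p = 0.156), and passed on filtered FPKM (0.0462 and 0.0466). Sp2, Sp4, Sp9, Klf1, Klf8 and Klf16 did not pass either (edgeR adjusted p from 0.0674 to 0.852), with Sp2 called without control replicate 3 (0.0428) and Sp9, as lower, without control replicate 2 (0.0398). Klf5 fell below the count filter and was not tested in the main fit, with 32, 9 and 35 counts in control and 2, 8 and 9 counts in sorafenib libraries. With no count filter, and by DESeq2, 1 gene of this list was called higher and 2 lower, the latter being Klf9 and Klf5. Klf15, Klf17, Sp5 and Sp7 had 0 to 6 counts in each library.

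**Figure D3:**
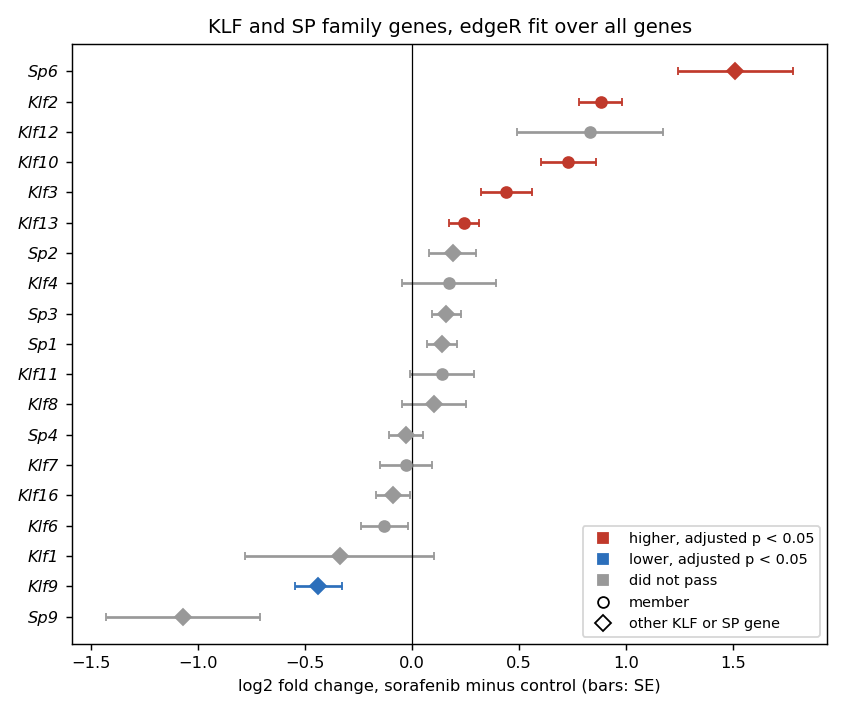
Log2 fold change (sorafenib minus control, bars ± SE, n = 3 libraries per group) of the 9 KLF genes (circles) and 10 other tested KLF and SP genes (diamonds). Klf2, Klf10, Klf3, Klf13 and Sp6 passed as higher (red), Klf9 passed as lower (blue) and the others did not pass (grey).

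Regulators known to act on Klf2 or Klf4 were measured as a list of 13 genes, all tested, of which 3 rose and 2 fell. That is 38.5% called, against 17.9% of all genes tested, with a median log2 fold change of 0.03. Foxo1, which drives Klf2 in resting T cells, had means of 326 CPM (control) and 302 CPM (sorafenib) and did not pass (log2 fold change -0.11 ± 0.09 SE, edgeR adjusted p = 0.458), while its relatives Foxo4 fell 1.32-fold (adjusted p = 0.00993) and Foxo3 rose by 0.22 on the log2 scale (adjusted p = 0.0404). Mapk7, which encodes ERK5, had a log2 fold change of -0.12 ± 0.09 SE and did not pass (edgeR adjusted p = 0.422). Map3k3, a kinase upstream of ERK5, rose 1.22-fold, from 55.1, 55.3 and 55.7 CPM in control to 66.6, 65.9 and 69.5 CPM in sorafenib libraries (edgeR adjusted p = 0.0135). Mef2c, which encodes a factor that binds the MEF2 consensus, had 3, 6 and 13 counts in control and 46, 25 and 38 counts in sorafenib libraries (edgeR adjusted p = 0.0142). Wwp1, a ubiquitin ligase that targets KLF2 and other KLF proteins, fell 1.23-fold (adjusted p = 0.0186).

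Without sorafenib replicate 1 none of these 5 regulators was called, the count of the list then being 0 by edgeR. The values there were adjusted p = 0.0596 for Foxo4, 0.0575 for Map3k3, 0.0811 for Mef2c, 0.0884 for Wwp1 and 0.127 for Foxo3. Without sorafenib replicate 3 the calls of Foxo4 (adjusted p = 0.0634), Map3k3 (0.0991), Mef2c (0.0639) and Foxo3 (0.211) were lost, and Wwp1 did not pass with control replicate 3 (0.0595) or sorafenib replicate 2 (0.103) left out or under scaling by total counts (0.0821). Foxo3 lost its call in 7 of the 17 alternatives in all, also without control replicate 3 (0.112) or sorafenib replicate 2 (0.0858). Foxo1 was called lower without control replicate 2 (log2 fold change -0.20, edgeR adjusted p = 0.00793). On unfiltered FPKM none of the 5 passed. Of 11 corepressors and coactivators of KLF proteins, 0 rose and 1 fell by edgeR (9.09% called, against 17.9% of all genes tested). At an unadjusted p under 0.05, 1 was higher and 3 were lower, and DESeq2 and limma-voom each called 0 higher and 1 lower. The gene that fell was Ctbp2, at 14, 16 and 21 counts in control and 5, 3 and 6 counts in sorafenib libraries (edgeR adjusted p = 0.0233). It did not pass without control replicate 3 (0.0995) or without sorafenib replicate 1 (0.0883), 2 (0.1) or 3 (0.0755), and its exons overlap those of another gene in GENCODE M21. Ctbp1, the abundant CtBP gene here, had means of 212 CPM (control) and 201 CPM (sorafenib) and did not pass (edgeR adjusted p = 0.429).

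Genes reported elsewhere as targets of the 9 factors rose in 5 of 11 cases and fell in 0 by edgeR (45.5% called, against 17.9% of all genes tested). Their median log2 fold change was 0.36. The genes that rose include Smad7, which is reported as repressed by KLF10 and KLF11. The lists share genes, among them Smad7 and Tgfbr2, which count here and in the TGF-β list below. Foxo3 likewise counts among both the upstream regulators and the quiescence genes. At an unadjusted p under 0.05, 6 were higher and 0 lower, and DESeq2 and limma-voom each called 5 higher and 0 lower. Among the reported targets of KLF2, S1pr1, the receptor that lets T cells leave lymph nodes, was 45.3, 52.3 and 49.4 CPM in control and 51.5, 45.8 and 46.9 CPM in sorafenib libraries, with overlapping groups (log2 fold change -0.03 ± 0.08 SE, edgeR adjusted p = 0.864). The integrin gene Itgb7 (log2 fold change 0.06 ± 0.06 SE, edgeR adjusted p = 0.547) and the chemokine receptor gene Ccr7 (log2 fold change -0.21 ± 0.10 SE, edgeR adjusted p = 0.198) did not pass either. S1pr1, Itgb7 and Ccr7 are not all of the reported KLF2 targets counted here, so they do not stand for the whole group.

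Ccl5, the known target of KLF13, was 2.28, 3.43 and 2.4 CPM in control and 9.09, 9.47 and 10.2 CPM in sorafenib libraries. It rose 3.55-fold (log2 fold change 1.83 ± 0.17 SE, edgeR adjusted p = 7.59e-05), a far larger change than the 1.18-fold of Klf13 itself. The cyclin-dependent kinase inhibitor gene Cdkn1a, a reported target of KLF4 and KLF6, had a log2 fold change of -0.02 ± 0.08 SE and did not pass (edgeR adjusted p = 0.917). Cdkn1c, with 6 to 11 counts in control and 19 to 32 counts in sorafenib libraries, did not pass (edgeR adjusted p = 0.0623). Foxp3, a reported target of KLF10, was 11.6, 11 and 14.6 CPM in control and 27.5, 22.7 and 25.4 CPM in sorafenib libraries (edgeR adjusted p = 0.000356).

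TGF-β pathway genes that feed into or out of KLF10 and KLF11 rose in 3 and fell in 1 of 11 cases. That is 36.4% called, against 17.9% of all genes tested, with a median log2 fold change of 0.14. Smad7, the inhibitory SMAD that KLF10 and KLF11 are reported to repress, was 66.6, 59.6 and 60.1 CPM in control and 92.2, 89.7 and 90.6 CPM in sorafenib libraries, so it rose beside Klf10 (1.46-fold, edgeR adjusted p = 0.000522). The receptor genes Tgfbr1 and Tgfbr2 rose 1.37-fold and 1.29-fold (edgeR adjusted p = 0.00304 and 0.00383), the latter from 180.3, 171 and 188 CPM to 233, 230.4 and 230.0 CPM. The coreceptor gene Tgfbr3 fell 1.39-fold, from 156, 124 and 155 CPM to 102, 104 and 107 CPM (edgeR adjusted p = 0.00532), a call lost on FPKM (adjusted p up to 0.15). The ligand gene Tgfb1 did not pass (log2 fold change -0.13 ± 0.09 SE, edgeR adjusted p = 0.33) and was called lower without control replicate 2 (0.0357). Without control replicate 2, 6 genes of this list were called higher and 2 lower. Over all genes, calls then numbered 4325 of 13591 tested, against 2378 of 13255 with all libraries.

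**Figure D4:**
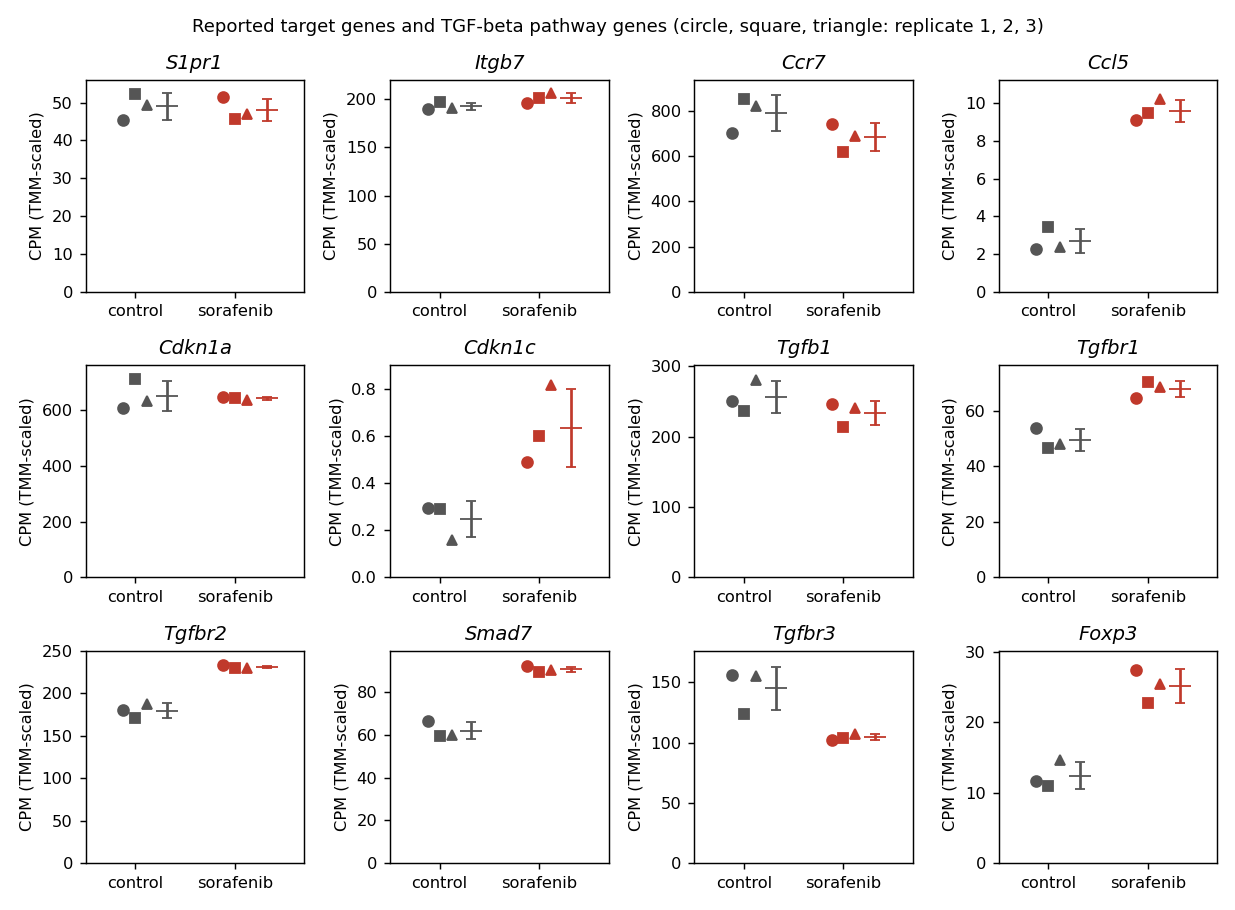
TMM-scaled CPM of 12 genes, reported KLF targets and TGF-β pathway genes, in each library (linear axes from 0; circle, square and triangle for replicates 1, 2 and 3; bar for mean ± SD, n = 3). Ccl5, Cdkn1c, Tgfbr1, Tgfbr2, Smad7 and Foxp3 lie higher in all sorafenib libraries, Cdkn1c without passing the test, Tgfbr3 lies lower, and S1pr1, Itgb7, Ccr7, Cdkn1a and Tgfb1 overlap.

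Quiescence genes, the group in whose company KLF2 is usually named, rose in 6 and fell in 1 of 20 cases. That is 35% called, against 17.9% of all genes tested, with a median log2 fold change of 0.16. Tcf7, a factor of naive and memory T cells, rose 1.89-fold, from 109, 106 and 122 CPM in control to 227, 199 and 213 CPM in sorafenib libraries (edgeR adjusted p = 4.54e-05). The glucocorticoid-induced gene Tsc22d3 rose 1.72-fold and Slfn2, which keeps T cells at rest, rose 1.56-fold (edgeR adjusted p = 0.00021 and 0.000359). Satb1, a chromatin organiser of T cells, fell 1.59-fold (edgeR adjusted p = 0.00111). Without control replicate 2 the list had 8 genes higher and 3 lower, while calls over all genes went from 2378 of 13255 to 4325 of 13591.

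Homing and recirculation genes moved both ways, with 2 higher and 3 lower of 12 (41.7% called, against 17.9% of all genes tested). Their median log2 fold change was -0.02. The chemokine receptor gene Cxcr3 was among those that rose, from a mean of 1.45 CPM in control to 3.28 CPM in sorafenib cells (edgeR adjusted p = 0.00256). Il7r, a cytokine receptor gene that FOXO1 is also known to drive, fell 1.55-fold, from 156, 159.8 and 166 CPM in control to 103, 102 and 106 CPM in sorafenib libraries (edgeR adjusted p = 0.000126). Cxcr4 fell 1.62-fold (edgeR adjusted p = 0.000237).

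The genes whose level over the 6 libraries lay nearest to that of Klf2, by the root mean square difference of centred log2 CPM among 8767 genes, were Add3 (0.0276), Gbp9 (0.0531) and Ephx1 (0.0625). Their rises were 1.87-fold, 1.77-fold and 1.85-fold, and being near that of Klf2 follows from how they were chosen. None of the 9 KLF genes fell, so none was matched in that direction.

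Klf2 and Klf4 are also transcribed in B cells, endothelial cells and myeloid cells, so markers of these cells are given beside them. Of 9 B cell markers, 8 were tested, 7 rose and 1 fell, where 8.51% of all genes tested were higher and 9.43% lower. Their summed level was 27.8 to 35.3 CPM in control and 38.6 to 41.1 CPM in sorafenib libraries. Ebf1 fell, with 18.6 to 20.5 CPM in control and 4.93 to 6.7 CPM in sorafenib libraries, Cd79b rose, with 4.05 to 7.96 and 12.7 to 15.1 CPM, and Ms4a1 had at most 0.0522 CPM in any library. The part of B cell transcript in the rises of Klf2, Ccl5 and Mef2c was not tested. Of the 9 macrophage, monocyte and dendritic cell markers 8 were in the table, 3 were tested and 0 passed by edgeR, with sums of 5.95 to 8.83 CPM in control and 7.12 to 8.83 CPM in sorafenib libraries, of which Cd68 made up most and Lyz2 at most 0.266 CPM. Endothelial and stromal markers summed to 51.9 to 54.5 CPM in control and 28.0 to 29.6 CPM in sorafenib libraries, nearly all of it Pecam1, with Cdh5 and Vwf at or below 0.0581 CPM in every library. The summed CD8 and NK cell markers were 8.71 to 10.2 CPM in control and 11.7 to 14.4 CPM in sorafenib libraries. Cd8b1 made up most of this, at 5.98 to 6.74 and 8.38 to 10.7 CPM, with Cd8a at most 0.613 CPM in any library. Of 8 neutrophil markers only 4 were measured, with sums of 9.35 to 11.3 and 2.58 to 2.96 CPM. Of these Cxcr2 had 5.72 to 7.57 and 2.27 to 2.76 CPM, and Elane at most 0.0258 CPM. Markers of erythroid cells and platelets summed to 5.52 to 6.97 and 5.57 to 6.59 CPM, most of it Itga2b. Among Th9 genes Il9, Gata3 and Etv5 rose and Il10 and Il21 fell, of 7 tested.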

How the data were processed

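RNA-seq of 6 Th9 cell libraries, 3 control and 3 sorafenib by their titles, was analysed. Per the file headers, the authors deposited 2 tables, of integer read counts per gene and of FPKM. The submitters' processing notes name the build GRCm39 and the tools HISAT2, HTSeq, fastp, DESeq2 and R 3.2.0. Not given in the sources used here were the tools' roles, the annotation and the strand setting. The deposited FPKM equalled counts scaled by column total and a fixed gene length for all 21233 genes, within 0.1 percent.

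Genes passing filterByExpr (13255) were TMM-scaled, and edgeR 4.0.16 in R 4.3.3 tested them (robust quasi-likelihood, no covariate, residual degrees of freedom 4), with Benjamini-Hochberg adjustment over all tested genes and a threshold of 0.05. The common biological coefficient of variation was 10.9%. Standard errors come from the F statistic. Simulated counts with known changes were used to check the test.

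The 17 alternatives were 3 other scalings, 2 other filters, a replicate block, DESeq2 1.42.0, limma-voom (limma 3.58.1), limma-trend on log2(FPKM + 1) unfiltered, or filtered at a mean FPKM of 0.5, and on filtered log2(FPKM + 0.1), and each of 6 libraries left out. The members, lists and tests were chosen with earlier results of these data known. Genes named are the 9 members, the other KLF and SP genes, the reported targets, the 4 or fewer called genes of each list with the lowest adjusted p (in a list with 0 calls, the 2 genes with the lowest p) and the 3 nearest to Klf2 among genes whose mean log2 CPM reached 3. Foxo1, Foxo3, Mapk7, Ctbp1, Cxcr3 and single marker genes were named after their values were seen. Of the genes counted in the lists, 2 are not reported here by name. Upstream sequences are from RefSeq (GRCm38.p6), lengths and overlaps from GENCODE M21.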

Additional observations from a re-analysis of the deposited data

How the results depend on the processing

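Over all genes 2378 passed, and 1243 to 4325 passed when 1 library was left out, the highest without control replicate 2 and the lowest without sorafenib replicate 3, with 1294 without sorafenib replicate 1 and 1549 without sorafenib replicate 2. Of the 9 KLF genes 4 passed as reported and 2 to 4 with 1 library left out, the 2 being Klf2 and Klf10 without sorafenib replicate 1 or 3. With unfiltered log2(FPKM + 1), 1423 genes, 2 KLF genes, 1 other KLF or SP gene, 0 upstream regulators and 0 corepressors or coactivators passed by limma-trend. On log2(FPKM + 1) and on log2(FPKM + 0.1) with the filter, 2 upstream regulators and 0 corepressors or coactivators passed. With total counts only, 1 other KLF or SP gene passed. With no count filter, and with CPM of at least 1 in 3 samples, 0 corepressors or coactivators passed, the latter filter removing Ctbp2. The cause of these differences was otherwise not tested. Leaving out 1 library gave 1 to 4 calls among other KLF and SP genes, 5 to 7 among homing genes, 6 to 11 among quiescence genes, 0 to 6 among upstream regulators, 0 to 3 among corepressors and coactivators, 4 to 8 among TGF-β genes and 5 to 6 among reported targets, the highest of each without control replicate 2. The log2 change of the ratio of Klf10 to Klf11 was 0.60 and lay between 0.43 and 0.75, that of Klf2 to Klf3 was 0.44 and lay between 0.36 and 0.52, and that of Klf2 to Klf6 was 1.01 and lay between 0.89 and 1.10. Higher calls numbered 1128 and lower calls 1250 as reported, 1496 and 826 with total counts only, 1363 and 1084 with upper-quartile factors and 1398 and 744 on filtered log2(FPKM + 1). The median of all genes moved to at most 0.07 on the log2 scale, and the 4 called KLF genes were higher under every scaling. Same-numbered control and sorafenib libraries deviated from their group means with correlations of -0.24, 0.0389 and 0.126, so the numbers were not taken to pair the samples. Only sorafenib replicate 3 correlated best with the library of its own number. With a replicate block 2139 genes and 3 KLF genes passed by edgeR, Klf13 having adjusted p = 0.0597. Scarce genes such as Klf12, Klf5 and Ctbp2 are limited by their counts.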
